A study of Mus musculus with 6 samples.

Results

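The 10 genes followed here in mouse liver are ones that Wnt/beta-catenin signalling keeps on in the hepatocytes around the central vein of the liver lobule. The members, chosen by symbol with earlier results of these data known, were Glul, Oat, Slc1a2, Rhbg, Axin2, Lgr5, Rnf43, Znrf3, Tbx3 and Cyp2e1. Each matched 1 row, so they make up 10 of the 56674 rows of the deposited count table. The livers came from male C57BL/6 mice kept to 71 weeks on chow containing polyethylene microplastic (PE-MP, 3 libraries) or on normal chow (3 libraries), with no other treatment or allele given in the labels. The labels give neither the dose of PE-MP nor the size of its particles, nor any batch or cage. Nor do they state that the libraries are from separate animals, so p-values speak of library-to-library spread only, part of which may be technical. The comparison asks whether prolonged exposure to PE-MP alters hepatic transcript levels. Bulk libraries do not show where in the lobule a transcript was made, so that the pericentral label rests on what is known of these genes.

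Background on this gene set is as follows. Endothelial cells of the central vein secrete Wnt2, Wnt9b and the R-spondin Rspo3, which stabilise beta-catenin in the adjoining hepatocytes. There, beta-catenin binds TCF/LEF factors on DNA and keeps on genes for glutamine synthesis, xenobiotic oxidation and the pathway's own feedback. Hepatocytes near the portal vein express in their place genes of urea synthesis and gluconeogenesis. Loss of beta-catenin in mouse liver abolishes Glul and lowers Cyp2e1.

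None of these 10 genes passed the threshold between the chows, and the one with the smallest p was Rhbg, with 3.36 CPM (counts scaled to a common library total) under PE-MP chow and 7.25 CPM under normal chow. By edgeR's quasi-likelihood test with Benjamini-Hochberg adjustment over 18043 tested genes, 0 of 10 members had an adjusted p under 0.05, where 1 gene in all (0.00554%) did. DESeq2 and limma-voom also called 0 of 10, against 6.57% and 0.0831% of all genes. At an unadjusted p under 0.05 there was 1 of 10 (Rhbg, lower under PE-MP chow), against 17.9% of all genes. The chows did not overlap for 0 of 10 members, against 26.0% of all genes. All 10 passed the filter on low counts. Their median log2 fold change of PE-MP chow over normal chow was -0.05, beside 0.02 for all tested genes, with 4 values positive and 6 negative, where 48.3% of all tested genes were negative. For 7 members a change of over 1 log2 unit either way fell outside the 95% interval, against 49.7% of all tested genes. The exceptions were Rhbg, Tbx3 and Znrf3. In bulk liver, fewer pericentral cells and less RNA per cell cannot be told apart.

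Libraries held between 75176645 and 91898953 counts under PE-MP chow and between 68357478 and 112566641 under normal chow. Normal chow library 2 stood apart. The ribosomal RNA row Rn18s-rs5 took 11.2% of its counts, against 0.334% to 5.98% in the other libraries. The 13 mitochondrial mRNAs took 8.91% ± 0.279 of counts under PE-MP chow and 14.6% ± 0.446 under normal chow (SD, n = 3 each). Summed levels of 9 hepatocyte markers overlapped, at 74007 to 82407 CPM under PE-MP chow and 70529 to 82878 CPM under normal chow. Those of 7 nuclear RNAs overlapped too (430 to 720 CPM and 179 to 509 CPM), with a median log2 fold change of 1.14 over the 6 tested, all positive. Normal chow library 2 was the highest of its chow for 6 of these 6. With all libraries, 1 of the 6 was higher at an unadjusted p under 0.05, against 9.1% of all genes in that direction. When normal chow library 2 was dropped, their median was 1.62 and 6 of 6 were higher at that p, against 14.7%. The count was 3 of 6 when PE-MP library 3 was dropped (6.01% of all genes). It was 0 or 1 of 6 when any other single library was dropped. The 10 Kupffer cell markers summed to 179 to 299 CPM under PE-MP chow and 132 to 180 CPM under normal chow and overlapped only at the edge. All 10 had positive log2 fold changes, with a median of 0.63, and 5 had an unadjusted p under 0.05, against 9.1% of all genes in that direction. That count was 2 without PE-MP library 1 (6.19% of all genes) and 3 without normal chow library 2 (14.7%). It was 10 without PE-MP library 3 (6.01%) and 4 to 6 without any other library. For 3 lists the sums did not overlap. Sinusoidal endothelial markers summed to 165 to 214 CPM under PE-MP chow and 125 to 145 CPM under normal chow, with 10 of 10 log2 fold changes positive. Of these, 1 of 10 had an unadjusted p under 0.05, near the 9.1% of all genes in that direction. Lymphocyte markers summed to 8.80 to 13.7 CPM and 23.0 to 60.7 CPM, with 10 of 10 negative. Adipocyte markers summed to 25.2 to 34.0 CPM and 39.1 to 81.4 CPM, with 4 of 5 tested negative and Lep at 0 counts in every library. At an unadjusted p under 0.05, 5 of 10 lymphocyte and 3 of 5 adipocyte markers were lower, against 8.82% of all genes. Normal chow library 2 was the highest of its chow for 8 of 10 lymphocyte markers. Without that library 2 of 10 lymphocyte markers were lower at that p, against 13.7% of all genes. Without PE-MP library 2 there were also 2 of 10, against 5.64%. Leaving out any other library gave 3 to 5 of 10. For adipocyte markers leaving out single libraries gave 2 or 3 of 5. The sums of stellate cell and fibroblast markers overlapped (221 to 396 CPM and 378 to 435 CPM). Their median log2 fold change was -0.34, with 9 of 10 negative and 2 of 10 lower at that p. No gene of these marker lists passed over all genes. The part of these differences in the members' values was not tested.

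The sequence before the start site was read for 6 members, in 7 promoters of RefSeq (build GRCm38.p6, 250 bases before each start, both strands). The TCF/LEF core CTTTGA occurred before Slc1a2 and Cyp2e1 and not before Glul, Oat, Axin2 or Rnf43, and 13.8% of 32851 promoters hold it. Its longer form ATCAAAG, which overlaps the core, occurred before Slc1a2 alone, and 3.2% of promoters hold it. The 3 windows that held the core are shown because they are the matches of the pathway's binding motif, in capitals, among the members.
Slc1a2, 206 bases before the start, chr2:102706212-102706257, plus strand: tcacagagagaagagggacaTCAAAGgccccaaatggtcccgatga
Slc1a2, 77 bases before the start, chr2:102706341-102706386, plus strand: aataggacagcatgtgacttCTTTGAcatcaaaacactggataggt
Cyp2e1, 135 bases before the start, chr7:140763664-140763709, plus strand: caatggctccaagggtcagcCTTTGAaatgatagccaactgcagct
In the first window the capitals are the core on the opposite strand. A match is a string of letters, and binding was not measured.

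**Figure D1:**
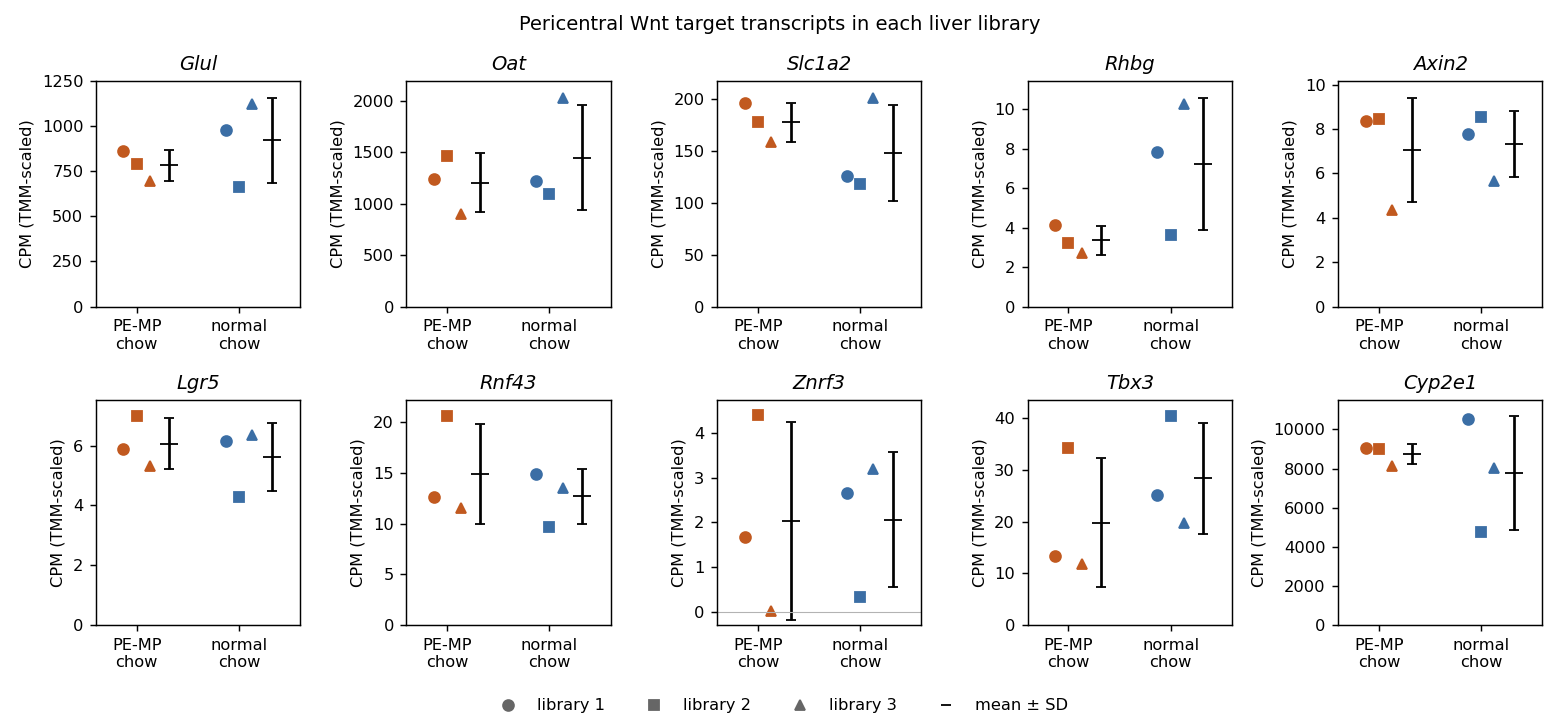
Level of each member in each library, in TMM-scaled CPM on linear axes, with PE-MP chow left of normal chow. Marker shapes give the library number, and bars are mean ± SD of 3 libraries; the chows overlap in all 10 panels, and for Rhbg only normal chow library 2 lies within the range of the PE-MP libraries.

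The 4 members that handle ammonia, glutamate and glutamine come first. Glul codes for glutamine synthetase, which fixes the ammonia that has escaped urea synthesis upstream and which is confined to the innermost pericentral hepatocytes. Glul stood at 866, 793 and 695 CPM in PE-MP libraries 1, 2 and 3, and at 981, 663 and 1123 CPM in normal chow libraries 1, 2 and 3. The lowest of the 6 values was normal chow library 2, and the 2 highest were the other normal chow libraries. The means were 784 ± 85.4 CPM and 923 ± 236 CPM (SD, n = 3 per chow). On the log2 scale the difference was -0.23 ± 0.21 (SE; adjusted p = 0.590 by edgeR), with a 95% interval of -0.74 to 0.27. It was -0.43 without normal chow library 2 (edgeR adjusted p = 0.105), when the chows no longer overlapped, as for 49.7% of all genes in that fit. Leaving out normal chow library 3 gave -0.07.

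Oat codes for ornithine aminotransferase, the mitochondrial enzyme that turns ornithine towards glutamate. It stood at 1241, 1469 and 900.1 CPM under PE-MP chow, against 1226, 1092 and 2033 CPM under normal chow. Normal chow library 3 alone lay above all others. Its log2 fold change was -0.27 ± 0.29 (SE; adjusted p = 0.653 by edgeR), and without that library it was 0.05.

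Slc1a2 codes for a high-affinity glutamate transporter (GLT-1, best known from astrocytes), which brings glutamate into glutamine-forming cells, and is the member with 2 core matches shown above. It stood at 196, 178 and 158 CPM under PE-MP chow, against 125, 118 and 201 CPM under normal chow. The 3 PE-MP values lay between normal chow libraries 1 and 2 below and library 3 above. Between chows the log2 fold change was 0.26 ± 0.22 (SE; adjusted p = 0.571 by edgeR). It was 0.54 without normal chow library 3 (edgeR adjusted p = 0.308), when the chows no longer overlapped, as for 31.6% of all genes in that fit. Leaving out normal chow library 2 gave 0.12 and leaving out library 1 of that chow 0.15. It was 0.03 with the trend over gene length and GC content removed.

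Rhbg codes for an ammonium transporter of the Rhesus family on the basolateral membrane. It stood at 4.14, 3.22 and 2.71 CPM in the PE-MP libraries (391, 264 and 292 counts), against 7.85, 3.64 and 10.2 CPM in the normal chow libraries (550, 219 and 1038 counts). The 2 highest values were normal chow libraries 1 and 3, and normal chow library 2 lay among the PE-MP libraries. The means were 3.36 ± 0.720 CPM and 7.25 ± 3.34 CPM (SD, n = 3 per chow). Its log2 fold change of -1.11 ± 0.39 (SE) had a 95% interval of -2.03 to -0.19 and an unadjusted p of 0.0246, but did not pass over all genes (edgeR adjusted p = 0.218). It was negative with each library left out, between -1.44 and -0.78. Without normal chow library 2 it passed (edgeR adjusted p = 0.0400). That fit called 5.65% of all genes in either direction, and 3.27% of all genes as lower under PE-MP chow. With all libraries the adjusted p of Rhbg was 0.0623 by DESeq2, which called 6.57% of all genes. By limma-voom, which called 0.0831%, it was 0.215.

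Genes at neighbouring steps were no clearer. Gls2, the periportal glutaminase that releases ammonia from glutamine, had a log2 fold change of 0.08 ± 0.15 (SE; adjusted p = 0.790 by edgeR). Cps1, which commits ammonia to the urea cycle, had one of 0.24 ± 0.20 (edgeR adjusted p = 0.557), and Arg1, the arginase that supplies ornithine, one of -0.13 ± 0.16 (edgeR adjusted p = 0.701). The neutral amino acid transporter Slc1a4 had one of -0.47 ± 0.25 (edgeR adjusted p = 0.368). Rhcg, the other epithelial ammonium transporter of the Rhesus family, had 0 counts in all 6 libraries.

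The next 4 members belong to the pathway's own feedback. Axin2 codes for a scaffold of the complex that degrades beta-catenin and is the most widely used reporter of Wnt activity. It stood at 8.38, 8.44 and 4.33 CPM under PE-MP chow, against 7.78, 8.55 and 5.66 CPM under normal chow. Library 3 was the lowest in each chow, and the other libraries lay close together. Between chows it had a log2 fold change of -0.06 ± 0.30 (SE; adjusted p = 0.937 by edgeR), with a 95% interval of -0.77 to 0.66. Its paralog Axin1, which serves in the same complex without being a common Wnt target, had a log2 fold change of 0.11 ± 0.12 (edgeR adjusted p = 0.647).

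Lgr5 codes for a receptor of R-spondins, which raise the response to Wnt. It stood at 5.89, 6.98 and 5.31 CPM under PE-MP chow, against 6.17, 4.29 and 6.36 CPM under normal chow. The chows overlapped, with normal chow library 2 the lowest. The log2 fold change was 0.11 ± 0.21 (SE; adjusted p = 0.810 by edgeR). It was 0.00051 with the length and GC trend removed, and -0.05 without normal chow library 2. Lgr4, the related receptor that hepatocytes express across the lobule, had one of 0.12 ± 0.14 (edgeR adjusted p = 0.681).

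Rnf43 and Znrf3 code for related membrane ubiquitin ligases that remove Frizzled receptors from the cell surface, unless R-spondin and LGR proteins clear them. Rnf43 stood at 12.7, 20.6 and 11.5 CPM under PE-MP chow, against 14.9, 9.65 and 13.6 CPM under normal chow. The highest value was PE-MP library 2 and the lowest normal chow library 2. The log2 fold change was 0.23 ± 0.27 (SE; adjusted p = 0.681 by edgeR), and without PE-MP library 2 it was -0.07.

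Znrf3 varied more within each chow than between chows. It had 158, 361 and 1 counts in the PE-MP libraries and 187, 20 and 323 counts in the normal chow libraries, or 1.67, 4.41 and 0.0093 CPM against 2.67, 0.333 and 3.19 CPM. PE-MP library 3 held nearly none, although it was the deepest library of its chow and held 1238 counts of Rnf43. The dispersion of Znrf3 lay at percentile 99.2 of all tested genes. Its log2 fold change of -0.04 ± 1.48 (SE; adjusted p = 0.991 by edgeR) had a 95% interval of -3.64 to 3.56, from 0.0805-fold to 11.8-fold. The estimate was positive when PE-MP library 1 or 3 or normal chow library 1 or 3 was left out and was -1.31 without PE-MP library 2. How reads were assigned to genes is not given in the sources used here, and its part in so low a count was not tested.

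**Figure D2:**
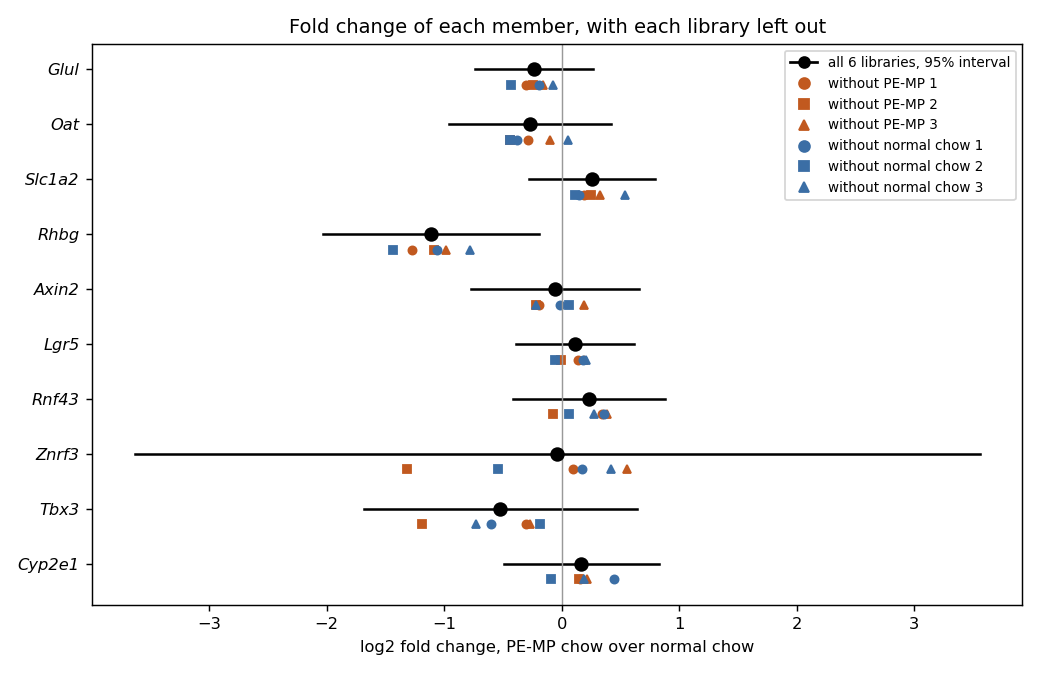
Log2 fold change of PE-MP chow over normal chow for each member. Black points and lines are the estimate and 95% interval from all 6 libraries, and the coloured marks below each line leave out 1 library; the interval of Rhbg alone lies off 0, and 6 members change sign when some library is left out.

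The last 2 members are a transcription factor and a cytochrome P450. Tbx3 codes for a T-box repressor that beta-catenin induces in pericentral hepatocytes. It stood at 13.3, 34.2 and 11.8 CPM under PE-MP chow, against 25.1, 40.4 and 19.6 CPM under normal chow. Library 2 was the highest of each chow, and PE-MP libraries 1 and 3 lay below all normal chow values. Its log2 fold change was -0.52 ± 0.48 (SE; adjusted p = 0.60 by edgeR), and between -1.18 and -0.18 with single libraries left out. It was -1.18 without PE-MP library 2 (edgeR adjusted p = 0.383), when the chows no longer overlapped, as for 32.9% of all genes in that fit. The related Tbx2 stood at 2.47, 2.77 and 2.19 CPM under PE-MP chow, against 1.83, 1.90 and 1.64 CPM under normal chow (log2 fold change 0.47 ± 0.20, SE; adjusted p = 0.274 by edgeR).

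Cyp2e1 codes for the P450 that oxidises ethanol and acetaminophen, and is made in a broader pericentral belt than Glul; its promoter holds the third match printed above. It was by far the most abundant member, with 0.968% ± 0.0144 of all counts under PE-MP chow and 0.704% ± 0.278 under normal chow (SD, n = 3 each). These are shares of unscaled totals, which held more mitochondrial mRNA under normal chow and most ribosomal RNA in normal chow library 2. In scaled values Cyp2e1 stood at 9043, 9008 and 8143 CPM under PE-MP chow, against 10530.4, 4748 and 8037 CPM under normal chow. The PE-MP libraries lay close together and inside the range of normal chow, of which library 2 was the lowest. The log2 fold change was 0.17 ± 0.28 (SE; adjusted p = 0.781 by edgeR), and without normal chow library 2 it was -0.09. It was 0.44 without normal chow library 1 (edgeR adjusted p = 0.463), when the chows no longer overlapped, as for 34.7% of all genes in that fit.

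Levels of different genes were compared per kilobase of the longest coding transcript in GENCODE M21, an annotation of another build than the files. On that scale (CPM per kilobase) Cyp2e1 led, with 4763 ± 278 under PE-MP chow and 4240.0 ± 1582 under normal chow (SD, n = 3 each). Oat followed with 559 ± 133 and 674 ± 236, Glul with 281 ± 30.6 and 331 ± 84.4, and Slc1a2 with 15.3 ± 1.63 and 12.8 ± 3.97. The ranges of these 4 over the 6 libraries did not overlap. Below them came Tbx3, Rnf43, Rhbg, Axin2 and Lgr5, where each gene's range overlapped that of the next. They stood between 1.29 ± 0.180 (Lgr5) and 3.97 ± 2.51 (Tbx3) under PE-MP chow, and between 1.19 ± 0.242 and 5.70 ± 2.16 under normal chow. Znrf3 was the lowest, with 0.321 ± 0.352 and 0.327 ± 0.241. The feedback genes and the metabolic genes thus spanned different levels, and Rhbg, though a transporter, stood among the feedback genes.

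Within a chow the members were low in the same libraries. PE-MP library 3 was the lowest of its chow for 10 of 10 members, against 33.6% of all tested genes. Normal chow library 2 was the lowest of its chow for 8 of 10 members, with Axin2 and Tbx3 highest in it instead, against 38.9% of all tested genes. Both counts were the same with no factors, with RLE and with upper-quartile factors. PE-MP library 3 was lowest for 9 of 26 other pericentral genes and for 16 of 27 periportal genes, and normal chow library 2 for 15 of 26 and 12 of 27. The members were not alone in this: PE-MP library 3 was lowest for 10 of 10 Kupffer cell markers and 6 of 9 hepatocyte markers, and normal chow library 2 for 7 of 10 and 6 of 9. These counts were looked at after the values had been seen, and libraries 2 and 3 have no label that sets them apart.

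**Figure D3:**
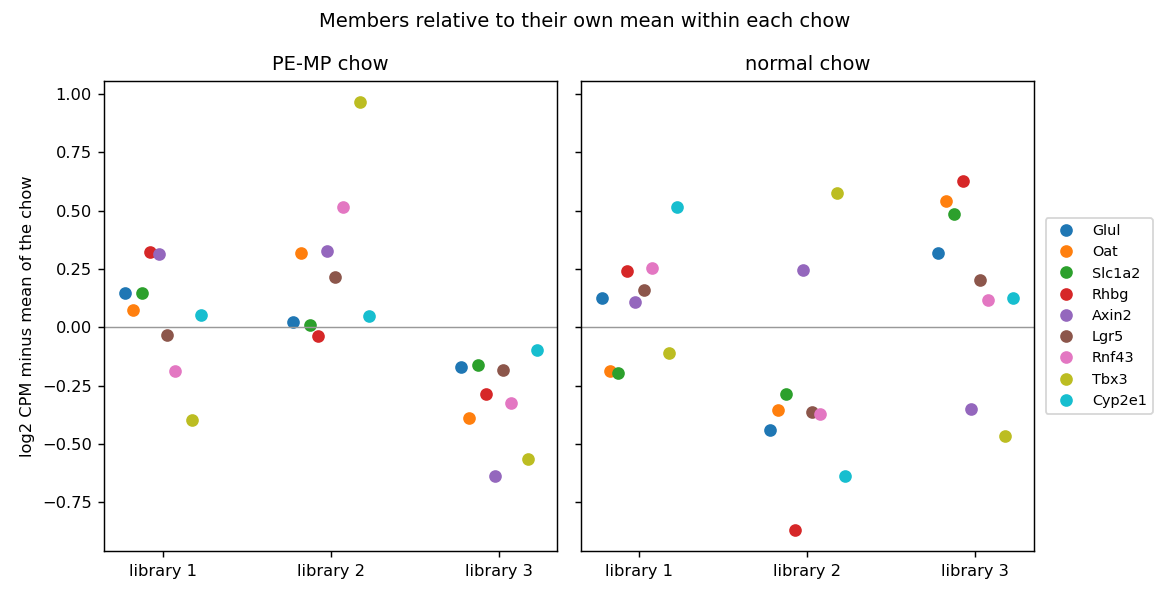
Each member's log2 CPM minus its mean over the 3 libraries of the same chow, for PE-MP chow (left) and normal chow (right). Znrf3 is left out because its 1 count in PE-MP library 3 would stretch the axis; all 9 points of PE-MP library 3 lie below 0, and in normal chow library 2 only Axin2 and Tbx3 lie above 0.

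A ratio of a pericentral to a periportal transcript in the same library does not depend on scaling between libraries. The log2 ratio of Glul to Gls2, the opposing enzymes of glutamine, was 1.47, 1.28 and 1.53 under PE-MP chow, against 1.83, 1.33 and 1.96 under normal chow. Glul to Cyp2f2, a periportal P450, was 0.34, 0.71 and 0.55, against 0.30, 0.07 and 0.65. Both ratios overlapped between chows. Cyp2e1 to Cyp2f2 was 3.73, 4.22 and 4.10 under PE-MP chow, against 3.72, 2.91 and 3.49 under normal chow. These values parted by the narrowest margin, between library 1 of each chow, with a difference of 0.64 in the means. With 3 against 3 libraries the exact permutation test cannot go below 0.1. Cyp2f2 itself had a log2 fold change of -0.38 ± 0.18 (SE; adjusted p = 0.324 by edgeR).

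Transcripts of the ligand genes were measured in the same libraries, which hold no measure of secreted protein. Of 10 genes for Wnt ligands, R-spondins and their secretion, 9 were tested and 0 passed; at an unadjusted p under 0.05 there was 1 higher, against 9.1% of all genes, and 0 lower, against 8.82%. Wnt2 stood at 1.49, 1.66 and 1.20 CPM under PE-MP chow, against 1.10, 1.20 and 1.65 CPM under normal chow. Rspo3 stood at 6.42, 4.59 and 6.02 CPM, against 5.03, 6.19 and 6.52 CPM. Wnt9b stood at 1.06, 0.818 and 0.641 CPM, against 0.457, 0.549 and 0.563 CPM. Of these 3 central vein signals only Wnt9b did not overlap between chows, as for 26.0% of all genes (log2 fold change 0.68 ± 0.29, SE; adjusted p = 0.286 by edgeR). Porcn, the acyltransferase that loads lipid onto Wnt proteins, had a log2 fold change of 0.58 ± 0.20 (edgeR adjusted p = 0.220), and Rspo1 one of -0.51 ± 0.70 (edgeR adjusted p = 0.729). The 10 central vein markers, which include Wnt2, Wnt9b and Rspo3, summed to 26.6 to 30.3 CPM under PE-MP chow and 24.1 to 27.3 CPM under normal chow. At an unadjusted p under 0.05, 2 were higher and 2 lower, against 9.1% and 8.82% of all genes. The chows did not overlap for 4 that were higher and 2 that were lower, against 14.2% and 11.8% of all genes.

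Receptors and transducers followed. Among 12 receptors and co-receptors, 11 were tested and 0 passed at either an adjusted or an unadjusted p under 0.05. Their median log2 fold change was 0.12 (0.02 without PE-MP library 3), and Fzd5 (0.36 ± 0.21), Fzd7 (-1.04 ± 0.74) and Fzd6 (0.22 ± 0.16) had the smallest p. Among 15 cytoplasmic transducers 0 passed, and 2 of 15 were higher at an unadjusted p under 0.05, near the 9.1% of all genes. These were Dvl2, a Dishevelled protein that relays the receptor signal (log2 fold change 0.80 ± 0.20, SE; adjusted p = 0.145 by edgeR), and Amer1, which binds the destruction complex (0.44 ± 0.17; edgeR adjusted p = 0.247). Dvl1 came next (0.39 ± 0.16; edgeR adjusted p = 0.279).

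Among 13 nuclear effectors 0 passed, with 1 higher and 1 lower at an unadjusted p under 0.05, near the shares of all genes (9.1% and 8.82%). Ctnnb1, the gene of beta-catenin itself, stood at 132, 140 and 137 CPM under PE-MP chow, against 127, 133 and 130 CPM under normal chow. The values overlapped narrowly, and the log2 fold change of 0.06 ± 0.10 (SE; adjusted p = 0.766 by edgeR) had a 95% interval of -0.17 to 0.30. Bcl9, which tethers transcriptional co-activators to beta-catenin, stood at 9.26, 8.87 and 7.35 CPM under PE-MP chow, against 4.98, 5.42 and 4.40 CPM under normal chow. All 3 PE-MP values were higher, as for 14.2% of all genes, with a log2 fold change of 0.78 ± 0.17 (edgeR adjusted p = 0.132). Tcf7l1, a TCF factor that mostly represses, had one of -0.63 ± 0.21 (edgeR adjusted p = 0.211) and Pygo2 one of -0.73 ± 0.49 (edgeR adjusted p = 0.464).

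Of 14 secreted inhibitors and other feedback genes, 9 were tested and 0 passed at an adjusted or unadjusted p under 0.05, with a median log2 fold change of -0.31. Its sign turned (0.17) when normal chow library 2 was left out, and leaving out library 3 of that chow gave -0.09. Each of those fits tested 10 genes of the list, so these medians are not over the same 9 genes. Notum, a Wnt-induced enzyme that strips the lipid from Wnt proteins, stood at 26.8, 22.5 and 25.5 CPM under PE-MP chow, against 23.6, 21.7 and 17.6 CPM under normal chow (log2 fold change 0.25 ± 0.15, SE; adjusted p = 0.425 by edgeR). Nkd1 and Sp5, both Wnt-induced in many tissues, had log2 fold changes of -0.24 ± 0.19 and -0.38 ± 0.38. Tcim (0.47 ± 0.22) and Sfrp1 (-0.44 ± 0.29) completed the 3 genes of smallest p.

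**Figure D4:**
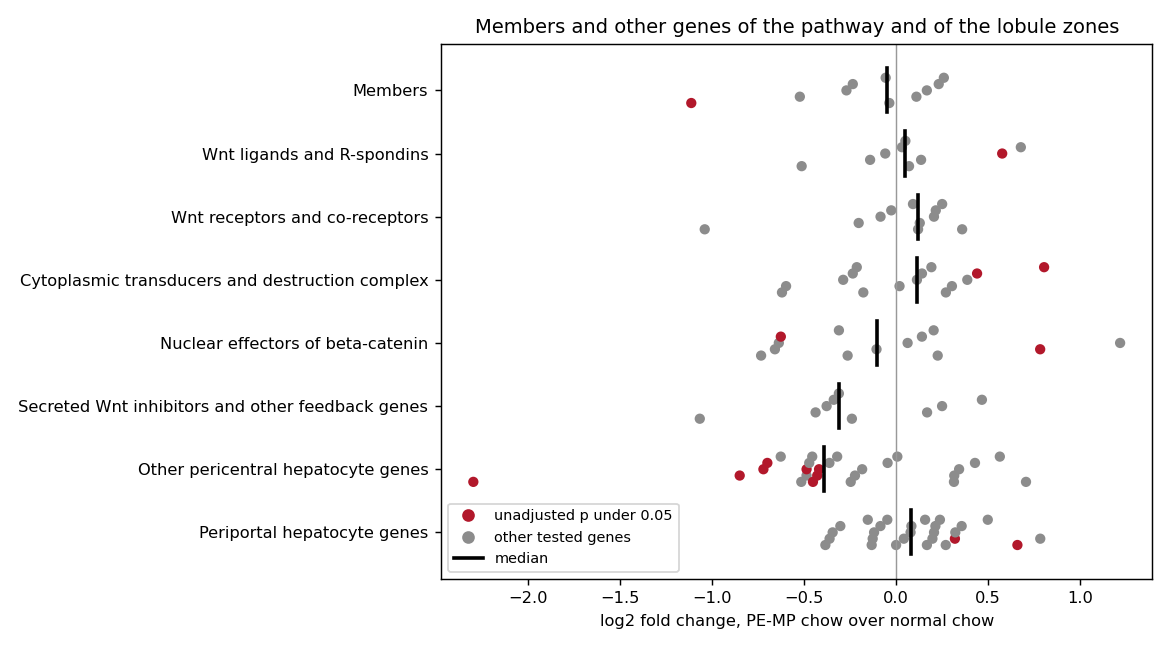
Log2 fold change of PE-MP chow over normal chow for the 10 members (top) and for the tested genes of 7 other lists, 1 point per gene. Bars are medians and red points have an unadjusted p under 0.05; 0 genes passed the adjusted threshold in any list, and the other pericentral genes have the lowest median, at -0.39.

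Other genes of the pericentral zone had a lower median than the members. Of 27 listed, 26 were tested and 0 passed over all genes. At an unadjusted p under 0.05, 8 were lower under PE-MP chow, against 8.82% of all genes, and 0 were higher. Their median log2 fold change was -0.39, beside -0.05 for the members. The difference between these lists was not tested, and the larger list was written with earlier results of these data known. The glutathione transferase Gstm3 had a log2 fold change of -2.30 ± 0.29 (SE; adjusted p = 0.0724 by edgeR), the biliverdin reductase Blvrb one of -0.70 ± 0.14 (edgeR adjusted p = 0.128) and the dicarboxylate transporter Slc13a3 one of -0.72 ± 0.23 (edgeR adjusted p = 0.198). The count of 8 became 3 without PE-MP library 1 and 3 without normal chow library 3, in fits where 6.59% and 5.42% of all genes were lower at that p. It was 5 without PE-MP library 3 (6.97% of all genes). It was 12 without normal chow library 2 (13.7% of all genes), of which 3 passed over all genes, where 3.27% of all genes did in that direction. Leaving out normal chow library 3 moved the list median to -0.24.

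Periportal genes gave the other end of the lobule. Of 28 listed, 27 were tested, and 0 passed. At an unadjusted p under 0.05, 2 were higher under PE-MP chow (Ctsc, 0.32 ± 0.13, and Slc7a2, an arginine transporter, 0.66 ± 0.27) and 0 were lower, against 9.1% and 8.82% of all genes. Slc38a2 came next (0.50 ± 0.22). The median log2 fold change was 0.08.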

How the data were processed

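Poly(A)-selected, strand-keeping libraries were made from liver RNA, per the labels' protocols. The authors deposited raw counts for each gene without normalisation, as their whole numbers and unequal totals show. Bcl2fastq and build GRCm39 are named, per the submitters' processing notes; which aligner, counter and annotation were used, and with what strand setting, is not given in the sources used here. The per-library files held the same values as the table of the series. Replicates of a chow differed by far more than sampling noise.

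The fit covered the whole table: edgeR 4.0.16 in R 4.3.3, default filter, TMM factors, robust quasi-likelihood F test, two-sided, Benjamini-Hochberg adjustment over 18043 genes, threshold 0.05. It was tested on simulated data. Levels are TMM-scaled CPM. Intervals are 95% intervals from the fit. Alternatives were DESeq2 1.42.0, limma-voom (limma 3.58.1), upper-quartile or RLE factors, other filters, each library left out, the replicate number as a block, no mitochondrial or 18S rows, and removal of a length and GC trend (GENCODE M21).

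Members and lists were chosen with earlier results of these data known. Of each other list the 3 genes of smallest p are named, with genes of the ligand, effector and inhibitor lists by value and partners sharing a step (Gls2, Cps1, Arg1, Slc1a4, Rhcg, Axin1, Lgr4, Tbx2, Cyp2f2). List symbols Cml2, G6pc1 and Tf matched no row. Sequences are RefSeq promoters matched by symbol, for 6 of 10 members.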

Additional observations from a re-analysis of the deposited data

How the results depend on the processing

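The count of all genes called, 1 by edgeR, was 3 with RLE factors, 23 with no low-count filter, 22 with a stricter one, 15 by limma-voom, 1186 by DESeq2 and 0 with the replicate block, and between 1 and 1075 with single libraries left out, highest without normal chow library 2; the cause was not tested. The count of members called was 0 under every alternative that gives one except without normal chow library 2, where Rhbg passed, so that leaving out single libraries gave 0 to 1. Members whose chows did not overlap numbered 0 to 2 with single libraries left out. They were Rhbg and Glul without normal chow library 2, where 49.7% of all genes did not overlap. The others were Rhbg without PE-MP library 1, Tbx3 without PE-MP library 2, Cyp2e1 without normal chow library 1 and Slc1a2 without normal chow library 3. Without any library but normal chow library 2, the share of all genes was 31.6% to 35.5%. The median log2 fold change of the members lay between -0.23 and 0.19 with single libraries left out. Leaving out single libraries turned the sign of Axin2 (-0.22 to 0.19), Cyp2e1 (-0.092 to 0.44), Lgr5 (-0.052 to 0.21), Oat (-0.44 to 0.053), Rnf43 (-0.073 to 0.39) and Znrf3 (-1.31 to 0.56). No other alternative turned the sign of a member, but each of them kept scaling factors between libraries. The TMM factors of the main fit parted by chow. They were 1.072, 1.091 and 1.171 for PE-MP libraries 1, 2 and 3, and 0.9232, 0.8795 and 0.9 for normal chow libraries 1, 2 and 3. The members' signs in a fit without such factors were not tested. With the length and GC trend removed, Slc1a2 had a log2 fold change of 0.03 and Lgr5 one of 0.00051. Znrf3 had -2.01 by limma-voom and did not enter the stricter filter. Same-numbered libraries of the 2 chows correlated in their deviations at 0.00272, 0.0405 and 0.136, so the numbers were not taken as pairs, although PE-MP libraries 2 and 3 correlated best with their own numbers; PE-MP library 1 correlated best with normal chow library 2 (0.12). With the replicate block, 2 members had an unadjusted p under 0.05 (Rhbg and Tbx3) and 0 passed.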

Other observations

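Znrf3 was one of 94 tested genes (0.521% of 18043) that reached at least 1 CPM in a library and stood at least 100-fold lower in another library of the same chow, a limit chosen after the values of Znrf3 had been seen. Among all lists used here, Bcl9l and Cdh5 were the others. Bcl9l, a homologue of Bcl9, stood at 27.7, 35.4 and 18.1 CPM under PE-MP chow and at 14.6, 0.0666 and 20.2 CPM under normal chow. Cdh5, the endothelial cadherin, stood at 3.89, 11.3 and 8.72 CPM under PE-MP chow and at 0, 5.74 and 12.3 CPM under normal chow. The low library differed from gene to gene: PE-MP library 3 for Znrf3, normal chow library 2 for Bcl9l and normal chow library 1 for Cdh5. How reads were assigned to these genes is not given in the sources used here, and its part in these values was not tested.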
